A study of Homo sapiens with 3 samples.

Results

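Glucagon and 5 genes that mark or serve the alpha cell of the islet were followed through stem cell-derived islets: GCG, GC, TM4SF4, LOXL4, DPP4 and PEMT, 6 of the 36601 genes in the deposited tables. The genes were taken by name, and all 6 were present. The islets came from the established human embryonic stem cell line HUES8 and were separated magnetically by CD49a, the integrin subunit that ITGA1 encodes. The CD49a-positive cells, the CD49a-negative cells and cells left unsorted were each gathered into aggregates for 7 days, dispersed, and sequenced by 10x Chromium single-cell RNA sequencing, with 1 library per group and no replicates. All 3 libraries came from 1 cell line with no genetic change named in the labels, and each aggregate culture pooled many cells. Values below are given in the order CD49a-positive, CD49a-negative, unsorted unless a library is named.

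Alpha cells secrete glucagon, which raises blood glucose by acting on the liver. GCG encodes proglucagon, which the convertase PCSK2 cuts to glucagon in alpha cells and the convertase PCSK1 cuts to the glucagon-like peptides in intestinal L cells. The other members are effectors of varied kind. GC encodes the vitamin D-binding protein, a plasma protein made mainly by the liver and also by alpha cells. DPP4 is a surface peptidase that inactivates the incretin hormones. TM4SF4 is a membrane protein of the L6 tetraspanin-like family, LOXL4 is a lysyl oxidase that cross-links matrix proteins, and PEMT methylates phosphatidylethanolamine to phosphatidylcholine.

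The positions of the genes on GRCh38 (GENCODE 29) place a pair of members side by side. GCG lies on chromosome 2 from 162142873 to 162152404 and DPP4 from 161992241 to 162074542, both on the minus strand. In the order of RefSeq protein-coding genes they are direct neighbours, 68.33 kb apart, and FAP, a peptidase related to DPP4, follows GCG on its other side at 18.3 kb. GC lies on chromosome 4 (71741693 to 71804041, minus strand), TM4SF4 on chromosome 3 (149473974 to 149503281, plus strand), LOXL4 on chromosome 10 (98247690 to 98268250, minus strand) and PEMT on chromosome 17 (17505563 to 17591708, minus strand).

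The RefSeq promoter table (GRCh38.p14) held 5 of the 6 members, all except GC, and the 250 bases before the RefSeq start were read from it. The 3 shown belong to the hormone gene, to its neighbour and to the member whose levels by cell type differed most from those of GCG. They are chr2:162152248-162152497 (minus strand) for GCG, chr2:162074216-162074465 (minus strand) for DPP4 and chr3:149474447-149474696 (plus strand) for TM4SF4. Capitals mark matches, on either strand, to the core promoter box TATAAA or to the forkhead motif TNTTTAC, as read in the window.
GCG: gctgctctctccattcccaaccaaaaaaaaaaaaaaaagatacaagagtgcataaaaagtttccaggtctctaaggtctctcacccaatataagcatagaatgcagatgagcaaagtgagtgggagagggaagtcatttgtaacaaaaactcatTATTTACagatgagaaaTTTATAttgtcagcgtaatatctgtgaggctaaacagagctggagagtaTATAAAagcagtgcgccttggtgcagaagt
DPP4: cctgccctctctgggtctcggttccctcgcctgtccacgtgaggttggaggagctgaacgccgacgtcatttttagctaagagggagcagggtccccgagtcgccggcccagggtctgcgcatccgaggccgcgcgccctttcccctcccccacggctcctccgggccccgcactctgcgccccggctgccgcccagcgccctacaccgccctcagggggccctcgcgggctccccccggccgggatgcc
TM4SF4: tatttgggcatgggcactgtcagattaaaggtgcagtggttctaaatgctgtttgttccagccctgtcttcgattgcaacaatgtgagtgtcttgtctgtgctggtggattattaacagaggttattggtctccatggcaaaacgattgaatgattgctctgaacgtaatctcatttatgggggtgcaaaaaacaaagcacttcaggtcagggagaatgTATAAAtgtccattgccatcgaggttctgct
The GCG sequence held a forkhead match that began 96 bases before the start, and TATA box matches that began 79 and 30 bases before it. The TM4SF4 sequence held 1 TATA box match, 31 bases before the start, and the DPP4 sequence held no match. None of the 3 held the homeodomain letters TAATTA or the MAF half-site letters TGCTGA, and no matches overlapped. Among 35116 RefSeq promoters of the same length, 10.7% held TATAAA, 9.58% TNTTTAC, 4.35% TAATTA and 14.0% TGCTGA. The GCG promoter was 38.4% G and C with 2 CpG sites, and that of TM4SF4 43.2% with 4, against a median of 58% and 11 over all promoters. DPP4 (73.6%, 26 CpG sites) and LOXL4 (86.4%, 37) lay above that median, and LOXL4 and PEMT held none of the 4 motifs.

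Cells were grouped by their dominant hormone. A barcode was kept if it held 1000 genes or more and no more than 20% of its unique molecular identifiers (UMIs) were mitochondrial, which left 2394 of 4512, 1976 of 2566 and 2256 of 2811 barcodes. The positive library thus lost 46.9% of its barcodes, against 23.0% and 19.7%. Pairs of libraries shared 2 to 6 barcode sequences. A cell was assigned to INS, GCG, SST, GHRL or PPY when that hormone held at least 2% of the cell's UMIs and at least 2 times the next hormone. Cells with a hormone at 2% but no clear lead were called mixed. Cells without a hormone at that level were called TPH1 cells if they held TPH1, which encodes the enzyme that begins serotonin synthesis, at 100 CPM (UMIs scaled to a common total, as is usual for counts) and 3 UMIs or more. The rest had no dominant hormone.

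GCG-dominant cells numbered 209, 446 and 392. They made up 8.73% (95% exact binomial interval 7.63 to 9.93), 22.6% (20.7 to 24.5) and 17.4% (15.8 to 19.0) of kept cells. INS-dominant cells numbered 1704, 503 and 901, TPH1 cells 94, 419 and 423, SST-dominant cells 33, 107 and 86, mixed cells 118, 167 and 154, and cells without a dominant hormone 236, 334 and 299. GHRL was dominant in 1 unsorted cell and PPY in none, so those classes are not described. Few cells lay near the limit of 2%: 17, 33 and 30 GCG-dominant cells held 2 to 3% GCG, and 16, 53 and 46 cells with GCG as the leading hormone held 1 to 2% and stayed outside.

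All 6 alpha cell markers, among them GCG, IRX1, IRX2 and TTR, were present at 10 CPM or more in the GCG-dominant cells of every library. Their summed level was 115318, 123146 and 131179 CPM, against 16427 to 24080 CPM in INS-dominant cells, but GCG itself made up much of that sum and was used to form the class. Without the hormone, IRX1, a homeodomain transcription factor of alpha cells, stood at 112.2, 134 and 130.5 CPM in GCG-dominant cells and at 29.6, 48.8 and 38.3 CPM in INS-dominant cells. Beta cell markers summed to 9752 to 10806 CPM in GCG-dominant cells.

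GCG reached 82794, 79230 and 89760 CPM in GCG-dominant cells. In single cells it ran from 2.03% to 30.1%, from 2.12% to 31.9% and from 2.01% to 29.3% of a cell's UMIs. Mixed cells held 28015, 31778 and 34246 CPM and stood next in order in every library. GCG was also found in cells outside both classes, at 1958, 5005 and 3617 CPM in INS-dominant cells and 1106, 1826 and 1354 CPM in TPH1 cells, the lowest class in each library. The 10% of INS-dominant cells with most GCG held 86.5%, 63.0% and 76.4% of that class's GCG, as summed CPM of single cells. These levels follow from the grouping and are a description.

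**Figure D1:**
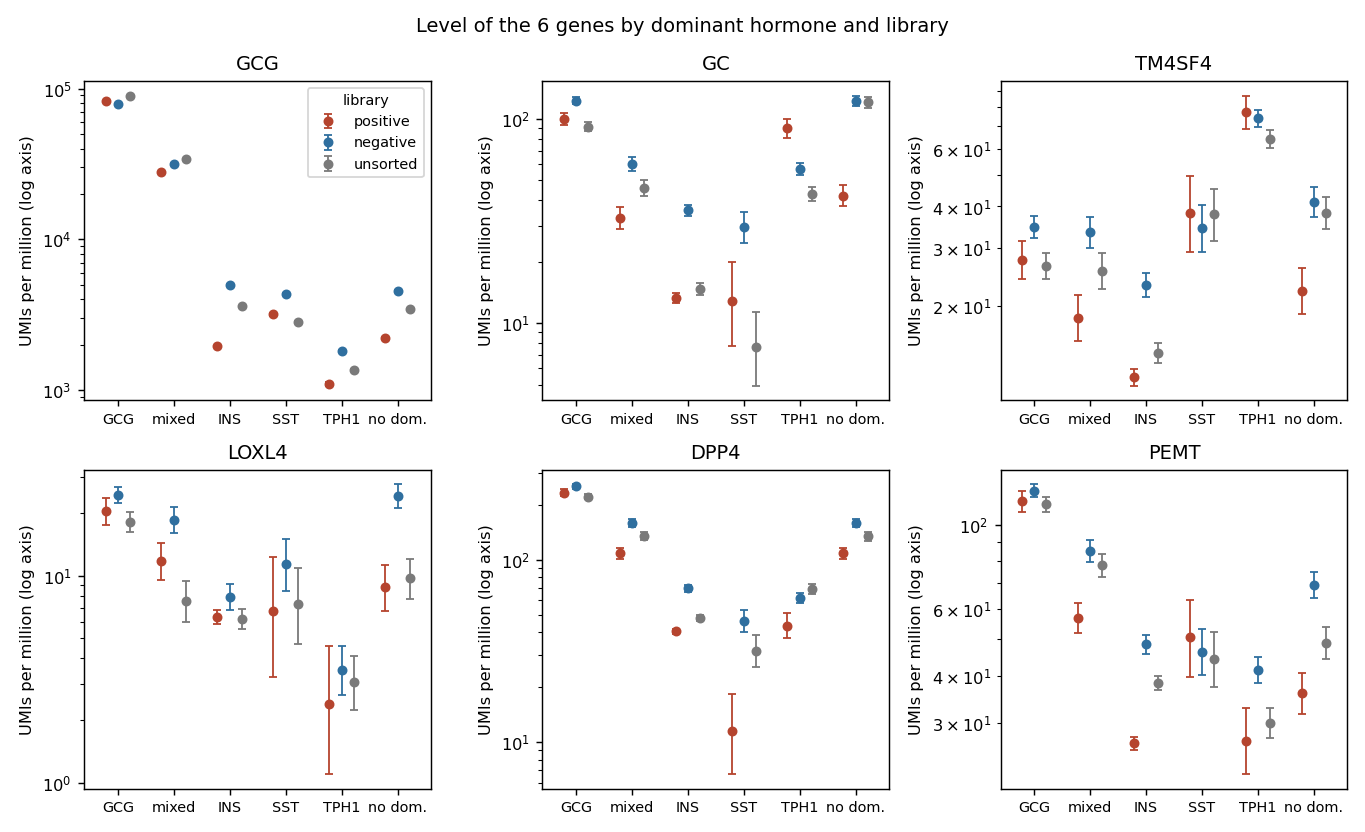
Level of each gene in CPM (log axis) in the summed cells of each class, with 1 point per library and exact 95% Poisson intervals for counting error. GC, DPP4, LOXL4 and PEMT sit high in GCG-dominant cells, TM4SF4 sits highest in TPH1 cells in all 3 libraries.

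GC was carried by GCG-dominant cells and, in part, by cells outside the hormone classes. In GCG-dominant cells GC stood at 99.9 CPM (95% exact Poisson interval 93.2 to 107), 123 CPM (118 to 128) and 91.6 CPM (87.2 to 96.1). In INS-dominant cells it stood at 13.3, 35.6 and 14.7 CPM, and in SST-dominant cells at 12.8, 29.6 and 7.63 CPM. The GCG-dominant sums lay above both in every library. TPH1 cells held 90.3, 56.8 and 43.1 CPM, so that their interval in the positive library (80.9 to 100) overlapped that of the GCG-dominant cells, and in the other libraries it did not. Cells without a dominant hormone held 42.2 CPM in the positive library but 123 and 121 CPM in the negative and unsorted libraries, level with the GCG-dominant cells in the negative library and above them in the unsorted one.

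In the fit over the 3 libraries, GC was 5.37-fold higher in GCG-dominant than in INS-dominant cells (log2 difference 2.43, SE 0.25, edgeR quasi-likelihood test, Benjamini-Hochberg adjusted p = 1.56e-06, 3 of 3 libraries) and 6.48-fold higher than in SST-dominant cells (2.70, SE 0.35, adjusted p = 5.34e-05). Against TPH1 cells the log2 difference was 0.97 (SE 0.25, edgeR adjusted p = 0.0049), short of the 2-fold size asked for. That adjusted p rose to 0.0527 with a stricter cell filter, 0.0888 with DESeq2, 0.0798 without the library as a term and 0.0873 without the unsorted library. GC passed both the adjusted p and the 2-fold size against TPH1 cells when the hormone had to hold 4% of a cell's UMIs (log2 1.20, edgeR adjusted p = 1.97e-05), when it had to reach 5 times the next hormone (1.12, 0.00317) and without the CD49a-positive library (1.26, 9.57e-06). Here and below, a gene was called when its adjusted p over 18500 genes was under 0.05 and its difference at least 2-fold. The 3 libraries are differently sorted pools of 1 line and not replicates of 1 group. With the library as a term in the fit, these p-values weigh a class difference only against how class differences varied across these libraries.

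GC is also a liver transcript, and markers of liver and intestine were read beside it. They did not share its calls in every comparison. The 8 liver and intestinal markers summed to 147, 161 and 141 CPM in GCG-dominant cells, 143, 164 and 144 CPM in INS-dominant cells and 118, 144 and 122 CPM in TPH1 cells, and 2, 3 and 2 of the 8 reached 10 CPM in GCG-dominant cells. SERPINA1, which encodes a protease inhibitor of plasma, was 3.44-fold higher in GCG-dominant than in INS-dominant cells and 5.74-fold higher than in TPH1 cells (edgeR adjusted p = 4.77e-06 and 6.37e-07). The apolipoprotein gene APOA2 was 2.91-fold and 4.43-fold higher (edgeR adjusted p = 0.00563 and 0.00308), on 6, 41 and 16 UMIs in GCG-dominant cells. Against SST-dominant cells neither gene was called. APOA1 was 2.16-fold lower than in TPH1 cells, as was CDX2 (7.28-fold), and neither was called against INS-dominant cells. VIL1 was called in neither comparison. In GCG-dominant cells ALB had 1, 2 and 5 UMIs, AFP 1, 5 and 1, and FABP1 was at 0 in the positive and unsorted libraries. The part of these markers in the GC values was not tested.

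DPP4 was highest in GCG-dominant cells and lowest in SST-dominant cells of every library. GCG-dominant cells held 233 CPM (223 to 244), 252 CPM (245 to 259) and 221 CPM (214 to 228). Mixed cells and cells without a dominant hormone followed, at 108 and 108 CPM in the positive, 159 and 159 in the negative, and 134 and 134 in the unsorted library, each pair within counting error. INS-dominant cells held 40.4, 69.7 and 47.6 CPM, TPH1 cells 43.5, 61.8 and 69.4 CPM, and SST-dominant cells 11.4, 46.2 and 31.8 CPM. DPP4 was 4.61-fold higher in GCG-dominant than in INS-dominant cells (log2 2.20, SE 0.16, edgeR adjusted p = 4.76e-08), 4.52-fold higher than in TPH1 cells (2.17, SE 0.17, adjusted p = 5.97e-08) and 7.88-fold higher than in SST-dominant cells (2.98, SE 0.21, adjusted p = 1.14e-07).

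PEMT followed the order of GCG more closely than any other member. It stood at 115, 123 and 113 CPM in GCG-dominant cells, at 56.9, 85.3 and 78.3 CPM in mixed cells, and at 26.5, 48.3 and 38.2 CPM in INS-dominant cells. TPH1 cells were the lowest or level with the lowest, at 27.0, 41.4 and 30.02 CPM. The GCG-dominant class was the highest in each library. The fold over INS-dominant cells was 3.18 (log2 1.67, SE 0.12, edgeR adjusted p = 2.2e-08), over TPH1 cells 3.99 (log2 2.0, SE 0.13, adjusted p = 5.39e-09) and over SST-dominant cells 2.75 (1.46, SE 0.14, adjusted p = 3.44e-06).

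LOXL4 was scarce but showed the widest gap to TPH1 cells among the 5 members tested. GCG-dominant cells held 20.5 CPM (17.6 to 23.8), 24.6 CPM (22.5 to 26.8) and 18.1 CPM (16.2 to 20.2). INS-dominant cells held 6.32, 7.88 and 6.20 CPM. TPH1 cells held 2.40, 3.52 and 3.06 CPM, on 9, 54 and 46 UMIs. Cells without a dominant hormone held 24.2 CPM in the negative library, within counting error of its GCG-dominant cells, and 8.83 and 9.73 CPM in the positive and unsorted libraries. LOXL4 was 7.52-fold higher in GCG-dominant than in TPH1 cells (log2 2.91, SE 0.13, edgeR adjusted p = 1.93e-10), 3.08-fold higher than in INS-dominant cells (1.62, SE 0.10, adjusted p = 7.35e-09) and 2.53-fold higher than in SST-dominant cells (1.34, SE 0.15, adjusted p = 1.25e-05).

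TM4SF4 went against the other members. Its highest level was in TPH1 cells of every library, at 77.5 CPM (68.8 to 86.9), 74.1 CPM (69.9 to 78.6) and 64.2 CPM (60.2 to 68.3). GCG-dominant cells held 27.6, 34.7 and 26.4 CPM, SST-dominant cells 38.3, 34.4 and 37.9 CPM, and INS-dominant cells, the lowest class, 12.1, 23.1 and 14.4 CPM. GCG-dominant and TPH1 cells did not overlap in any library. TM4SF4 was 2.16-fold lower in GCG-dominant than in TPH1 cells (log2 difference -1.11, SE 0.14, edgeR adjusted p = 7.93e-06), but the difference was -0.88, short of 2-fold, when the hormone had to hold 4% of a cell's UMIs. Against INS-dominant cells it was 1.85-fold higher (log2 0.89, SE 0.14, edgeR adjusted p = 0.000103), short of the 2-fold size. It was past that size, and called, with the hormone at 4% (log2 1.10), at 5 times the next (1.15) and without the CD49a-negative library (1.0096). Against SST-dominant cells the log2 difference was -0.20 (SE 0.17, edgeR adjusted p = 0.51), and it was 0.08 when the leading hormone had to reach 5 times the next.

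Of the 5 members that did not form the classes, 4 were called higher and 0 lower in GCG-dominant than in INS-dominant cells, where 5.54% of the 18500 genes were called higher and 5.83% lower. Against TPH1 cells 3 were called higher (background 7.65%) and 1 lower (9.09%). Against SST-dominant cells 4 were called higher (2.36%) and 0 lower (3.72%). The median log2 difference of the 5 was 1.67, 2.0 and 1.46 in these comparisons, and over all genes 0.02, 0.03 and 0.00. The comparisons share the GCG-dominant sums. The members were named as alpha cell genes and chosen with earlier results of these data known, so these counts are a description.

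**Figure D2:**
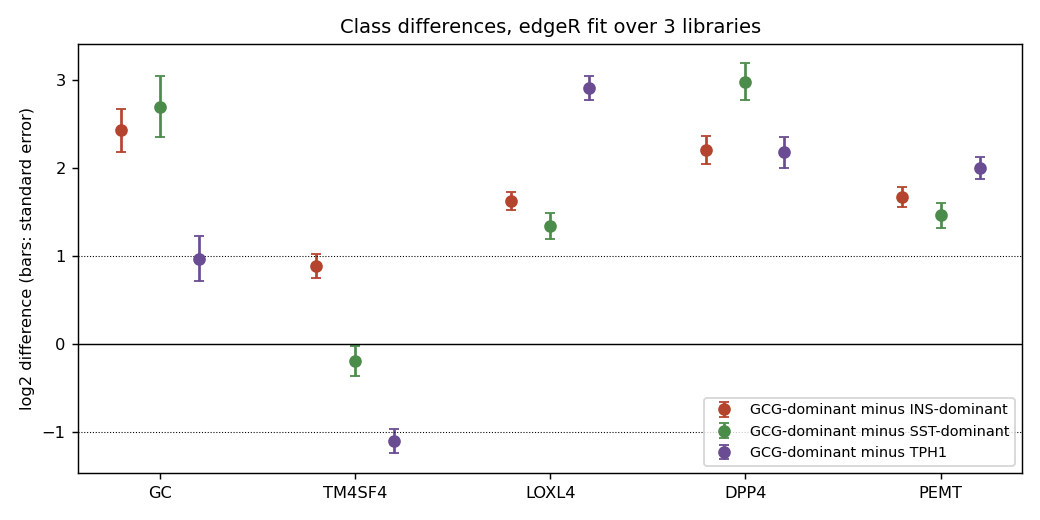
Log2 difference of each member between GCG-dominant cells and the INS-dominant, SST-dominant and TPH1 cells, from the edgeR fit over 3 libraries; bars are standard errors and dotted lines mark the 2-fold size. DPP4, LOXL4 and PEMT lie above 1 in all 3 comparisons, GC is at 0.97 against TPH1 cells, and TM4SF4 is at -1.11 against TPH1 cells.

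GCG-dominant cells held most of the GCG UMIs but no more than 46.6% of those of any other member. Their share of all GCG UMIs was 61.6%, 75.1% and 72.5%. For GC the shares were 28.1%, 41.2% and 35.6%, for DPP4 26.0%, 46.6% and 38.7%, for PEMT 22.4%, 41.7% and 34.0%, and for LOXL4 18.4%, 41.6% and 36.2%. TM4SF4 had the smallest shares, 11.5%, 21.7% and 16.1%, and in every library more of it (14.4%, 34.5% and 32.9%) lay in TPH1 cells. In the positive library, where 71.2% of kept cells were INS-dominant, that class held 41.3% of GC, 49.9% of DPP4, 57.0% of PEMT, 62.8% of LOXL4 and 56.1% of TM4SF4.

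**Figure D3:**
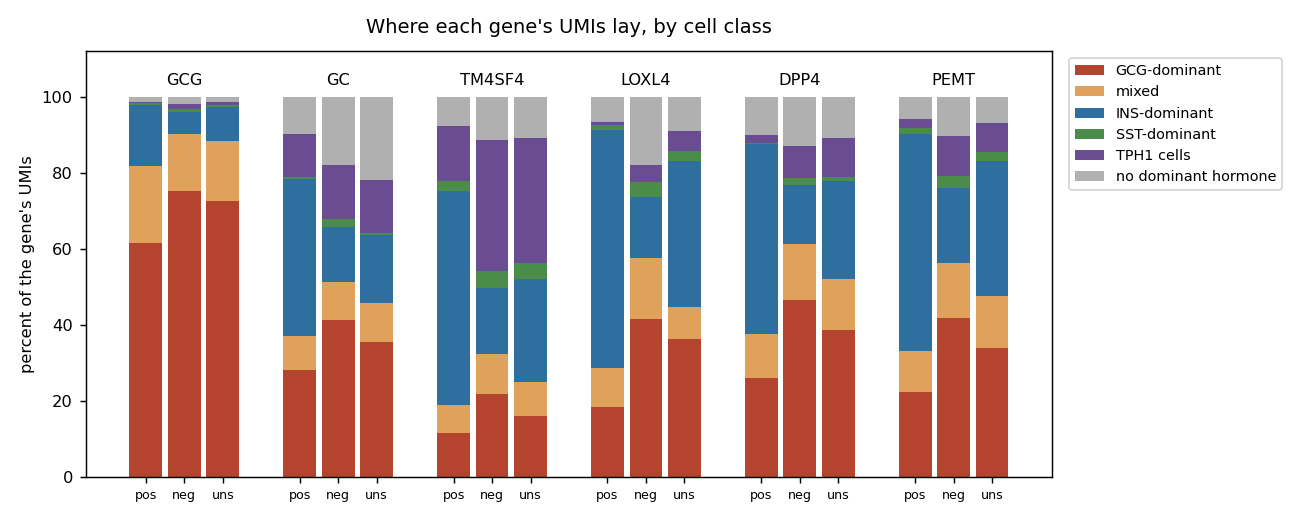
Percent of each gene's UMIs that lay in each cell class, for the positive (pos), negative (neg) and unsorted (uns) libraries; each bar adds to 100%. GCG-dominant cells held 61.6 to 75.1% of GCG but 11.5 to 21.7% of TM4SF4.

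The effector levels of INS-dominant cells were set beside what their GCG would bring at a fixed ratio. At the ratio of each effector to GCG in GCG-dominant cells, the GCG in INS-dominant cells would bring 17.8%, 21.8% and 25.1% of the GC found there, 13.6%, 22.9% and 18.7% of the DPP4 and 10.3%, 16.1% and 11.9% of the PEMT. In TPH1 cells the same reckoning gave 1.48%, 4.99% and 3.21% of the GC and 0.476%, 1.08% and 0.62% of the TM4SF4. For DPP4 in SST-dominant cells of the positive library it reached 78.3%, on 17 DPP4 UMIs. These shares depend on the ratio taken. DPP4 stood at 2.82, 3.18 and 2.47 UMIs per 1000 GCG UMIs in GCG-dominant cells. In cells without a dominant hormone it stood at 48.5, 34.7 and 39.1. Where the GCG in other classes came from was not tested.

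The members differed in how many GCG-dominant cells carried them. Cells were thinned to 10000 UMIs each, and 16, 13 and 25 shallower GCG-dominant cells were left out. DPP4 was then found in 67.4%, 74.8% and 68.1% of GCG-dominant cells, and in 12.1%, 18.8% and 14.3% of SST-dominant cells, the class with least DPP4. Before thinning the shares in GCG-dominant cells were 84.2%, 91.0% and 84.9%, at median depths of 37952, 39470 and 40492 UMIs, and those in SST-dominant cells 21.2%, 30.8% and 23.3%, at 37925, 37945 and 33550 UMIs. PEMT was found in 55.4%, 57.7% and 59.1% of thinned GCG-dominant cells and in 20.4%, 31.8% and 29.6% of INS-dominant cells.

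GC was found in 40.9%, 43.4% and 40.3% of thinned GCG-dominant cells, against 6.14%, 12.7% and 8.34% of INS-dominant cells. Before thinning these were 53.1%, 65.7% and 60.5%, against 15.3%, 27.2% and 23.2% at median depths of 53838.5, 45165 and 57227 UMIs. The 10% of GCG-dominant cells with most GC held 50.1%, 50% and 51.3% of the class's GC, as summed CPM of single cells before thinning. The values were 40.7%, 35.5% and 37.8% for DPP4 and 36.5%, 30.2% and 35.0% for PEMT. For the scarcer TM4SF4 they were 72.8%, 57.9% and 64.8%, and for LOXL4 48.0%, 61.0% and 55.3%. Few UMIs per cell raise such a share. TM4SF4 was found in 13.5%, 21.0% and 16.1% and LOXL4 in 20.2%, 16.2% and 12.3% of thinned GCG-dominant cells, against 17.4%, 33.6% and 33.6% (TM4SF4) and 0%, 2.01% and 1.46% (LOXL4) of TPH1 cells. Before thinning TPH1 cells held TM4SF4 in 42.6%, 53.5% and 49.4%, at median depths of 31909, 30513 and 30684 UMIs, and GCG-dominant cells in 30.1%, 42.4% and 37.2%.

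Few GCG-dominant cells held a UMI of all 5 effectors at 10000 UMIs: 0 of 193, 4 of 433 and 3 of 367. In the thinning above TM4SF4 averaged 0.223, 0.309 and 0.213 UMIs per GCG-dominant cell, and LOXL4 0.233, 0.245 and 0.153. At this depth the counts cannot show whether single cells lack an effector. None of the 5 was found in 9.84%, 6.47% and 6.27% of cells, and the most common number was 2 (35.8%, 33.0% and 37.1%). DPP4 was found in 82.6%, 81.1% and 76.9% of GCG-dominant cells with GC and in 58.9%, 66.5% and 63.8% of those without it. TM4SF4 was likewise found more often beside GC, in 23.2%, 27.6% and 23.8% of cells with GC and 11.3%, 12.9% and 13.8% of cells without. LOXL4 was found in 17.4%, 15.7% and 11.9% of cells with GC and 16.9%, 19.8% and 16.1% of cells without, so that it was less frequent beside GC in the negative and unsorted libraries. PEMT was found in 65.2%, 63.2% and 58.0% of cells with GC and 59.7%, 52.4% and 61.6% of cells without, with the unsorted library opposite to the others. These pairings are described within libraries and were not tested, since cells of 1 library are not replicates.

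GCG-dominant cells were then split into quartiles of GCG share within each library, and levels were taken as CPM of the UMIs other than GCG. DPP4 was lower in the top than in the bottom quartile of every library. It stood at 305 in the bottom and 157 in the top quartile of the positive library (ratio 0.515, 95% exact interval for counting error 0.446 to 0.594), at 266 and 221 in the negative library (0.829, 0.760 to 0.905) and at 304 and 147 in the unsorted library (0.483, 0.434 to 0.537). The order was not even: in the negative library the second quartile was the highest, at 306. Of 3426 genes, 48% were lower in all 3 libraries, with library medians of -0.08, -0.12 and -0.10 on the log2 scale, and the mean log2 difference of DPP4, -0.73, was undercut by 5.72% of them.

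PEMT and GC went the other way. Between the bottom and top quartiles PEMT went from 110 to 168, from 114 to 177 and from 113 to 142 (ratios 1.53, 1.55 and 1.26). GC went from 117 to 134, from 120 to 157 and from 77.2 to 124 (ratios 1.15, 1.31 and 1.60), with an interval that included 1 in the positive library (0.958 to 1.38). Of all genes 33.7% were higher in all 3 libraries. LOXL4 had ratios of 1.55, 1.35 and 1.05, and TM4SF4, at 1.77, 0.776 and 1.32, differed in direction between libraries. TTR, an abundant alpha cell transcript, had ratios of 1.77, 1.56 and 1.75, and IRX2, another homeodomain factor of alpha cells, of 1.55, 1.29 and 1.43. INS in the same cells stood at 0.984, 1.21 and 0.882 of its bottom-quartile level. The share of GCG in a cell chose the quartiles, so other transcripts of a high-GCG cell are taken relative to what is left, and no test was made.

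**Figure D4:**
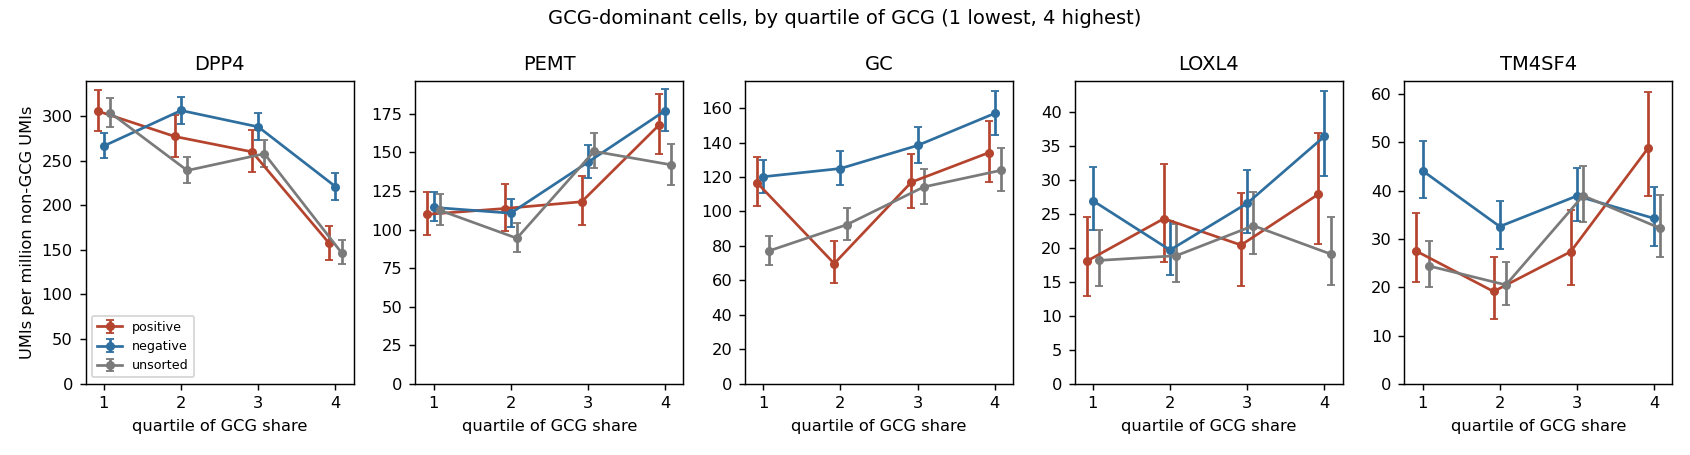
Level of the 5 members in GCG-dominant cells (CPM of UMIs other than GCG) by quartile of GCG share, 1 line per library, with exact 95% Poisson intervals. In the top quartile DPP4 stands at 147 to 221 and PEMT at 142 to 177, and TM4SF4 has no shared direction.

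The libraries differed in the level of each member over all kept cells, and the share of GCG-dominant cells moved with it. No test between single libraries was possible, and fewer alpha cells cannot be told apart from less RNA per cell in these sums alone. Over all kept cells GCG stood at 9275, 25768 and 20093 CPM, GC at 24.5, 72.8 and 41.7 CPM, and DPP4 at 61.9, 132 and 92.9 CPM. PEMT stood at 35.5, 72.0 and 53.9 CPM, TM4SF4 at 16.5, 39.0 and 26.6 CPM, and LOXL4 at 7.69, 14.4 and 8.13 CPM. Every member was lowest in the positive and highest in the negative library. The positive level was 0.360 of the negative one for GCG, 0.337 for GC, 0.423 for TM4SF4, 0.469 for DPP4, 0.493 for PEMT and 0.533 for LOXL4. With 10 CPM added to both sides, GCG (log2 -1.47) and GC (-1.26) were at least 2-fold lower, as were 0.637% of the 4241 genes compared, and 0.825% were at least 2-fold higher. The median of the 6 members on that scale was -0.93, and of all genes 0.03. TM4SF4 (log2 -0.89) and LOXL4 (-0.47) were too low in CPM to be among the genes compared, so the 2-fold count could not include them.

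Within GCG-dominant cells the libraries were close. The ratio of positive to negative was 1.04 for GCG, 0.938 for PEMT (0.870 to 1.0101), 0.925 for DPP4 (0.878 to 0.975), 0.833 for LOXL4 (0.697 to 0.992), 0.812 for GC (0.751 to 0.879) and 0.796 for TM4SF4 (0.684 to 0.924). Of GCG, GC, DPP4 and PEMT none passed the 2-fold rule there, which 0.147% of 4075 genes passed upward and 0.123% downward. TM4SF4 and LOXL4 were under the minimum CPM of that rule, so it could not call them. The unsorted library was not between the others for any of the 6: GCG was highest in it, and the 5 effectors were lowest, each with an interval that overlapped that of the positive library. The median of the 6 members between the positive and negative libraries was -0.14, and of all genes 0.08. For PEMT the log2 difference of -0.09 became 0.16 when CPM values of single cells were averaged.

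The other classes did not share these ratios. In INS-dominant cells the positive level was 0.373 of the negative one for GC, 0.525 for TM4SF4, 0.548 for PEMT, 0.580 for DPP4 and 0.801 for LOXL4. GCG in the same cells moved alike, at 0.391. In TPH1 cells GC was instead 1.59 times as high in the positive library (1.40 to 1.80), TM4SF4 was level (1.04), and DPP4 (0.705) and PEMT (0.652) were lower. The positive library had 94 TPH1 cells, and 27 of them (28.7%) held any GC, against 34.1% in the negative library. The 10 positive TPH1 cells with most GC held 91.9% of that class's GC, as summed CPM of single cells.

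**Figure D5:**
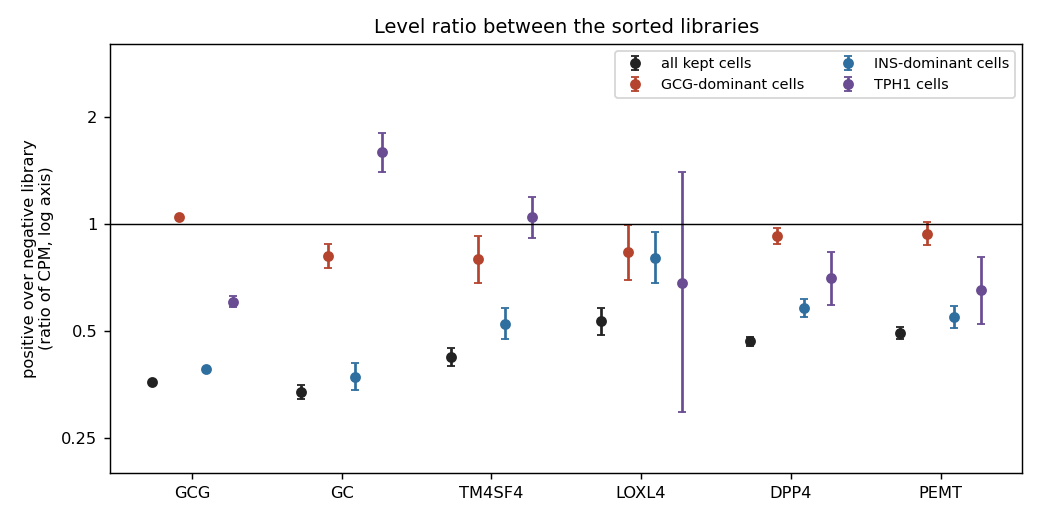
Ratio of CPM between the CD49a-positive and CD49a-negative libraries (log axis; a line marks equal levels) over all kept cells and within 3 classes, with exact 95% intervals for counting error. All 6 genes lie at 0.337 to 0.533 over all cells, but at 0.796 to 1.04 within GCG-dominant cells, and GC lies above 1 in TPH1 cells.

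Cells without a dominant hormone carried much GC as a class sum, most of it in few cells. They were split further by the hormone with most UMIs, a split chosen after their values were seen. Those led by INS were 196, 200 and 222 cells. They held GC at 45.3, 157 and 140 CPM and IRX2 at 67.2, 172 and 120 CPM, while GCG stood at 969, 1775 and 1163 CPM. Their GC exceeded that of the GCG-dominant cells in the negative and unsorted libraries and lay under it in the positive one. Those led by GCG, 29, 94 and 56 cells, held DPP4 at 416, 251 and 199 CPM. Their median depth was 26125, 26374 and 31662.5 UMIs, below that of the GCG-dominant cells, and its part in these levels was not tested.

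Gene sets around the members were then compared between GCG-dominant and INS-dominant cells. The sets were drawn up with earlier results of these data known. Of 12 alpha cell transcription factors, 4 were called higher and 0 lower, where 5.54% of all genes were called higher and 5.83% lower. IRX1 was 3.28-fold higher (log2 1.71, SE 0.10, edgeR adjusted p = 5.15e-09). IRX2 was 2.70-fold higher (log2 1.43, SE 0.13, edgeR adjusted p = 5.29e-07), at 242, 276 and 261 CPM against 86.9, 112.4 and 91.1 CPM. PAX6, which beta cells also use, was not called (log2 0.08, adjusted p = 0.42). The median of the set was 0.08, against 0.02 over all genes.

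Of the 17 tested among 18 other alpha cell effectors, 12 were called higher and 0 lower (all genes 5.54% and 5.83%). Their median log2 difference was 1.10. RGS4, a regulator of G protein signalling, stood at 293, 283 and 287 CPM in GCG-dominant cells and 54.3, 80.0 and 65.0 CPM in INS-dominant cells (4.36-fold, edgeR adjusted p = 2.31e-09). KCTD12 stood at 293, 255 and 283 CPM against 77.1, 90.2 and 87.3 CPM (3.26-fold). FAP, the neighbour of GCG, was 10.7-fold higher (log2 3.42, SE 0.33, edgeR adjusted p = 2.63e-06) but scarce, at 2.61, 2.37 and 2.85 CPM on 22, 49 and 51 UMIs.

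Of 10 genes of prohormone processing, 1 was called higher and 1 lower (all genes 5.54% and 5.83%). Counts of 1 in a set this small are close to those shares. PCSK2 was 2.09-fold higher in GCG-dominant cells, at 239, 212 and 240 CPM against 96.0, 118 and 116 CPM. PCSK1 was 8.36-fold lower (log2 -3.06, SE 0.20, edgeR adjusted p = 1.56e-08), at 30.6, 54.6 and 45.5 CPM against 398, 330 and 359 CPM. PAM, which amidates peptide ends, had a log2 difference of -0.95. The median of the set was -0.17.

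Of the 10 tested among 11 receptors of these peptides and relatives of DPP4, FAP was called higher and GLP1R and GCGR lower. Over all genes 5.54% were called higher and 5.83% lower. GLP1R, the receptor for the glucagon-like peptide that DPP4 inactivates, stood at 5.21, 11.1 and 6.38 CPM in GCG-dominant and 26.8, 42.6 and 36.5 CPM in INS-dominant cells (log2 -2.21, SE 0.15, edgeR adjusted p = 2.39e-08). GCGR, the glucagon receptor, stood at 1.54, 3.53 and 2.63 CPM against 8.12, 13.4 and 10.0 CPM (log2 -1.99). The peptidases DPP7, DPP8, DPP9 and the related DPP6 and DPP10 were not called, with log2 differences from -0.03 (DPP8) to 0.63 (DPP7). The median of the set was 0.20.

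The families of the remaining members mostly did not move with them. The shares of all genes called were 5.54% higher and 5.83% lower, and 1 call in a small family is close to them. Of 4 tested lysyl oxidases LOXL4 was called higher and LOXL2 lower (log2 -1.22, SE 0.23, edgeR adjusted p = 0.000642), and the median was -0.23. Of 13 genes of phosphatidylcholine synthesis PEMT was called higher and none lower; CHKA, which phosphorylates choline, had a log2 difference of 0.77 and ETNK1, its ethanolamine counterpart, of -0.77, and the median was -0.03. None of the 5 relatives of TM4SF4 had enough counts to be tested, and each was under 1 CPM in GCG-dominant cells. Of 10 albumin family and vitamin D genes 4 could be tested, and CUBN, a receptor that takes up the vitamin D-binding protein, was called higher (2.59-fold, 5.57, 4.12 and 5.37 CPM in GCG-dominant cells). Their median was 0.50.

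Among 8 tested genes of amino acid handling, 3 were called higher and none lower (all genes 5.54% and 5.83%). SLC7A2, a transporter of cationic amino acids, was 2.06-fold higher. CPS1, which begins the urea cycle, was 3.23-fold higher but scarce, at 3.199, 2.28 and 2.13 CPM. The median of the set was 0.37.

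Against the other classes the same sets gave similar counts in some cases and not in others. Over all genes 7.65% were called higher and 9.09% lower against TPH1 cells. Against SST-dominant cells the shares were 2.36% and 3.72%. Of the 12 transcription factors 7 were called higher against TPH1 cells and 3 against SST-dominant cells, and of the 17 other effectors 10 were called higher in each comparison, with 0 lower throughout. The receptors and DPP4 relatives had 2 higher and 2 lower against TPH1 cells, and 1 higher and 2 lower against SST-dominant cells. Prohormone processing had 1 higher and 1 lower against TPH1 cells, and 2 higher and 1 lower against SST-dominant cells. LOXL4 was the 1 lysyl oxidase called, higher in both.

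The genes most like each member were ranked by Pearson r of log2(CPM + 10) over 18 sums of class and library, among 5404 genes. The sums share libraries, depth and the class rule, so r is a description. Nearest to GCG were C15orf48 (r = 0.97), LRATD1 (0.97), BTG1 (0.96), DMKN (0.94) and CXCL1 (0.94). C15orf48 stood at 114, 140 and 121 CPM in GCG-dominant and 40.9, 56.4 and 48.9 CPM in INS-dominant cells. The chemokine CXCL1 stood at 54.1, 67.7 and 52.8 CPM against 4.29, 11.7 and 6.59 CPM.

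Of the members PEMT ranked 7 for likeness to GCG (r = 0.94), LOXL4 115 (0.76), DPP4 137 (0.74), GC 1009 (0.40) and TM4SF4 2734 (-0.34). DMKN was also the gene nearest to PEMT (r = 0.97), followed by MAGI2-AS3 and GPC5-AS1 (0.96 each). Those 2 are named as antisense transcripts, and their overlap with other genes was not examined. Nearest to GC were GLUD1 (0.86) and APH1B (0.85), and to DPP4 TP53I13 (0.93), SMC2 (0.91) and VEGFC (0.91). LOXL4 was nearest to SERPINI1 (0.93), IER2 (0.91) and GLUL (0.90), and TM4SF4 to MCOLN3 (0.94), ZFHX3 (0.92) and SORCS2 (0.92). MCOLN3 stood at 83.9, 70.9 and 76.8 CPM in TPH1 cells and 45.5, 46.5 and 42.7 CPM in GCG-dominant cells.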

How the data were processed

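The authors deposited UMI counts, 1 matrix of whole numbers per library. The submitters' processing notes name Cell Ranger 7.1.0 and GRCh38; the gene annotation is not given in the sources used here. Total UMIs were 127119509 (CD49a-positive), 88397368 (CD49a-negative) and 114479071 (unsorted). Kept cells had median depths of 48538.5, 36997 and 42361 UMIs. Groups followed the sorting labels.

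UMIs were summed per library and cell class and expressed as CPM, with exact 95% Poisson or Clopper-Pearson intervals that cover counting error only. Class differences were tested with edgeR 4.0.16 (R 4.3.3; quasi-likelihood test, TMM, filterByExpr, library as a term) on 12 sums of the INS, GCG, SST and TPH1 classes. The 6 genes that form the classes were not tested. Adjusted p-values are Benjamini-Hochberg over all 18500 genes. Between libraries, log2 ratios had 10 CPM added, which understates changes of low genes, and the 2-fold rule took genes with 50 CPM and 50 UMIs in the higher library. Python 3.11.15, numpy 2.4.6, scipy 1.17.1 and pandas 2.3.3 were used, and thinning used random seed 0. The tests were tested on simulated data.

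No doublet caller was used. Mixed cells were kept apart, and an alternative left out the 5% of cells with most UMIs. Alternatives were DESeq2 1.42.0, other scalings, filters, class limits and added CPM, and each library left out. Named genes were the 6 members, the 3 of each gene set with the largest difference between GCG-dominant and INS-dominant cells, and the 5 (GCG) or 3 genes most like each member; further genes of a set were named to describe its family, and some genes that the rule names are not reported here. The members, gene sets and class rule were chosen with earlier results of these data known. GENCODE 29 gave positions and RefSeq (GRCh38.p14) the promoters.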

Additional observations from a re-analysis of the deposited data

Results flagged for a closer look

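Class sums of GC differed in direction between cell classes under the same contrast of the CD49a-positive with the CD49a-negative library. The ratio of positive to negative was 0.812 in GCG-dominant cells and 0.373 in INS-dominant cells, but 1.59 in TPH1 cells. The difference was not tested, since each group is 1 library. In the positive library 10 of the 94 TPH1 cells held 91.9% of that class's GC, as summed CPM of single cells. In the negative library 42 of 419 held 82.2%. After thinning, GC was found in 16.3% of positive and 19.8% of negative TPH1 cells, the other way to the sums.

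GC was also present in barcodes left out by the cell filter. In the positive library the 2118 removed barcodes held GC at 31.0 CPM (147 UMIs), against 24.5 CPM in kept cells. The 130 of them over the mitochondrial limit held 116 of these UMIs, at 43.0 CPM, and the 1988 under the gene minimum held 31, at 15.1 CPM. In the removed barcodes of the negative and unsorted libraries GC stood at 17.0 and 24.5 CPM, below the 72.8 and 41.7 CPM of kept cells.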

How the results depend on the processing

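The class tests compared classes within each library, with the library as a term. Between libraries no pairing was possible, because each group is 1 library and the replicate numbers only name it. Without the library as a term, GC against TPH1 cells no longer had an edgeR adjusted p under 0.05 (0.0798). Of 210 alternative values of the class tests of members, 203 kept the call (adjusted p and 2-fold size) and 7 did not. GC against TPH1 cells was called at 4% (1.20), at 5 times the next (1.12) and without the positive library (1.26); TM4SF4 against INS-dominant cells was called at 4% (1.10), at 5 times the next (1.15) and without the negative library (1.0096), and against TPH1 cells it lost its call at 4% (-0.88). In 4 the adjusted p of GC against TPH1 cells was above 0.05 (log2 0.80, 0.86, 0.92 and 0.77 against 0.97), and TM4SF4 against SST-dominant cells, called in neither, turned to 0.079. The all-gene median against TPH1 cells was -0.13 with library sizes only (0.03 with TMM), and 0.11 between positive and negative cells with median-of-ratios factors (0.03 without). Leaving out each library in turn gave 767 to 950 genes higher and 906 to 1038 lower against INS-dominant cells, 1064 to 1563 and 1402 to 1705 against TPH1 cells, and 313 to 438 and 447 to 711 against SST-dominant cells; the 447 came without the unsorted library, against 689 with it.

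Between positive and negative cells, 35 genes were at least 2-fold higher and 27 lower; the counts were 10 and 10 with 50 CPM added, 22 higher with means of single cells and 42 lower with no filter. In GCG-dominant cells 6 were higher and 5 lower. The higher count was 1 with 50 CPM added, 2 with means of single cells, 3 with the hormone at 4% and 2 at 5 times the next; the lower count was 8 with 1 CPM added, 2 with 50, 8 with no filter, 11 at 5 times the next and 3 with the stricter cell filter. PEMT there went from -0.09 to 0.16 with means of single cells, and LOXL4 between quartiles of the unsorted library from 0.07 to -0.14 as CPM of all UMIs. The share of GCG-dominant cells was 7.06%, 18.6% and 14.4% at 4%, 6.43%, 17.1% and 13.3% at 5 times the next, and 9.98%, 25% and 20.4% with the stricter filter in the positive, negative and unsorted libraries, and 7.05% in the positive one with the wider filter. LOXL4 and TM4SF4 rest on 173 to 716 UMIs in GCG-dominant cells, which limits their precision.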
